A study of Homo sapiens with 4 samples.

Results

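Chromatin regions listed as accessible after IFN-γ in both WT and sgFLI1 HK1 cells, and in neither untreated library, were described here. HK1 is an established human nasopharyngeal carcinoma line. ATAC-seq, which cuts accessible DNA with a transposase, gave 1 deposited peak list for each of 4 groups: WT Control (called WT below), sgFLI1 Control (sgFLI1), WT treated with IFN-γ for 24 hours (WT-IFN-γ), and sgFLI1 treated with IFN-γ for 24 hours (sgFLI1-IFN-γ). The sgFLI1 cells carry a CRISPR guide against FLI1, and the labels do not say whether they are 1 clone or a pool.

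The 4 lists held 59629 to 67470 peaks on 23 chromosomes. Peaks that shared at least 1 bp were merged into 93211 regions. The 1624 regions chosen by this rule held a WT-IFN-γ peak and an sgFLI1-IFN-γ peak and no peak of either untreated list, which is 1.74% of all merged regions. Presence and absence in the lists chose the regions, so that their absence without IFN-γ is not a finding. With 1 library in each group there was no replicate error, and no test between groups was made. Intervals cover counting error only, and the tags of an amplified library are not independent molecules.

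IFN-γ signals through its receptor to JAK kinases and STAT factors, which bind GAS elements in DNA and induce the transcription factor IRF1. IRF factors bind tandem copies of the core GAAA, found in the interferon-stimulated response elements of antiviral, guanylate-binding and antigen-presentation genes. FLI1 is an ETS-family factor, and ETS factors bind a GGAA core.

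The sequences below are from GRCh38, on the plus strand and 5′ to 3′. They are shown because of the motifs searched, the IRF motif was the one whose share lay furthest above that in regions listed in all 4 libraries, in percentage points. The capitals mark each IRF motif (GAAA, any 2 bases, GAAA), and any GAS motif (TTCNNNGAA) or AP-1 motif (TGAGTCA), on either strand. The first 5 are 30-base stretches around an IRF match near the TSS of an IFN-γ response gene.
GBP1, chr1:89065316-89065345: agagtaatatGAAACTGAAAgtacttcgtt
OAS2, chr12:112978511-112978540: tagacttcagTTTCAGTTTCctggctctgg
IFI27, chr14:94110631-94110660: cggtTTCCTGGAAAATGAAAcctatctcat
APOL3, chr22:36160795-36160824: acccaaaaggGAAAGTGAAAgtcacaactt
IL18BP, chr11:71999540-71999569: gttaaaaagtGAAAGTGAAAtagagggtcg
In IFI27 the GAS and IRF matches overlapped, and the capitals run over both.

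The next 3 are the 201 bases centred on the WT-IFN-γ summit of distal or upstream regions.
Upstream of HSPA5, chr9:125243327-125243527: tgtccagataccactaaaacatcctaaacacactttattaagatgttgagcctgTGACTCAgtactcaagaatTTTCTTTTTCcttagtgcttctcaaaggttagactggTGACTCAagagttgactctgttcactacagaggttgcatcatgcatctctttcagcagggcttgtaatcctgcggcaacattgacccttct
Upstream of GBP1, chr1:89070107-89070307: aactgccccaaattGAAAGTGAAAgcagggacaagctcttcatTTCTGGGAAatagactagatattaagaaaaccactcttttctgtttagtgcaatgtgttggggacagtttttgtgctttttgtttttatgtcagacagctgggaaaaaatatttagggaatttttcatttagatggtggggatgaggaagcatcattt
Upstream of GBP5, chr1:89274530-89274730: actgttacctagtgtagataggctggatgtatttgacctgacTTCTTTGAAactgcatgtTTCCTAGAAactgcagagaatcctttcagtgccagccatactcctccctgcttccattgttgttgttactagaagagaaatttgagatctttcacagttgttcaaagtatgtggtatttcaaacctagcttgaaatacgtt

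Most of the regions were weak peaks. The tags stacked at the summit, called the pileup, had a median of 17 in WT-IFN-γ (lowest 8, highest 167) and 12 in sgFLI1-IFN-γ (lowest 7, highest 110). Regions listed in all 4 libraries had medians of 50 and 38 tags. Of the 1624 regions, 296 (18.2%) stood above the median of the WT-IFN-γ list by −log10 q, 61 (3.76%) above that of the sgFLI1-IFN-γ list, and 32 (1.97%) above both. The smaller −log10 q of the 2 IFN-γ peaks had a median of 3.72 and ran from 1.32 to 25.3.

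The number of such regions was within the range of patterns that cross genotype and treatment, of which WT-IFN-γ with sgFLI1 held 1681 regions and WT with sgFLI1-IFN-γ held 907. The reverse pattern, both untreated libraries and no IFN-γ library, held 1214. When both IFN-γ peaks had to reach a −log10 q of 5, 502 regions were left. Of the regions just inside the rule, 80 had a smaller −log10 q under 2. Just outside it lay 2270 regions with a peak in WT as well and 2679 with a peak in sgFLI1 as well, of which the untreated peak had a −log10 q under 2 in 11 and 28.

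Both IFN-γ peaks of a region were put at the depth of each untreated library. The background used was the IFN-γ peak's own local background at that depth, or the untreated library's overall background where higher. The local background in the untreated libraries was not available for these regions. In 1586 regions both peaks reached the tags that each untreated list required. With a counting probability of 90% of being listed in place of the bare limit, 635 regions did. For the other regions the margin over the limit was within counting error, so that their absence from the untreated lists is weakly determined. An untreated peak lay within 1 kb of 130 regions and within 5 kb of 534 (32.9%).

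The regions were mostly distal. The summit lay within 3 kb of a protein-coding TSS in 150 (9.24%, Wilson 95% interval 7.92 to 10.7%), against 33.4% of regions listed in all 4 libraries and 9.64% of those in both untreated libraries only. A further 60 summits (3.69%) were exonic, 591 (36.4%) intronic and 823 (50.7%) intergenic. The median distance to a TSS was 31466 bp. The median width was 568 bp, against 1047 bp for regions in all 4 libraries. The 2 IFN-γ summits of a region lay a median of 64 bp apart, and within 100 bp in 64.2% of regions, against 75.6% in regions listed in all 4 libraries. The regions were spread over every chromosome analysed, from 1.29% of the merged regions of chromosome 18 to 2.18% of those of chromosome 2.

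An IRF motif lay within 100 bp of the summit in 246 regions, or 15.1% (13.5 to 17.0%). The share was 2.81% in regions listed in all 4 libraries, 2.80% in those of both untreated libraries only, and 4.66% over all merged regions. It was 4.70% (WT-IFN-γ with sgFLI1) and 2.43% (WT with sgFLI1-IFN-γ) in the patterns that cross genotype and treatment. Their IFN-γ peaks had medians of 15 tags in WT-IFN-γ and 12 in sgFLI1-IFN-γ. In WT with sgFLI1-IFN-γ the window was centred on the WT summit, as no WT-IFN-γ peak was listed. The part of peak strength in these shares was not tested. Regions of WT-IFN-γ only held it in 16.5%, and regions of sgFLI1-IFN-γ only in 2.38%. The intervals of the shares in both IFN-γ libraries and in WT-IFN-γ only overlapped.

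**Figure D1:**
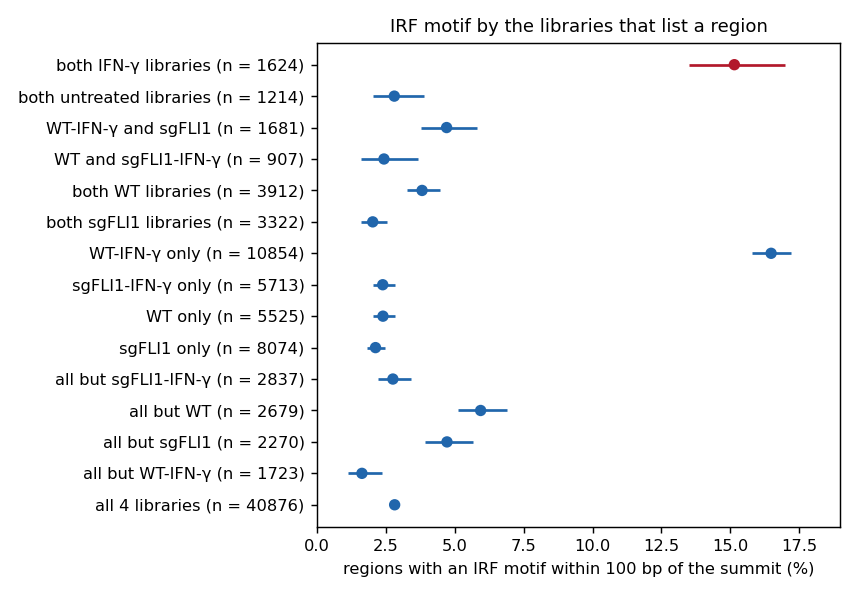
Share of merged regions with an IRF motif within 100 bp of the summit (x axis, percent), by the libraries that list the region (y axis). Points are shares and bars are Wilson 95% intervals. The regions of both IFN-γ libraries (red, 15.1%) and of WT-IFN-γ only (16.5%) stand apart from the other 13 patterns.

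Of the 246 regions, 200 held 1 match and 46 held more. The match lay a median of 34.0 bp from the summit, against 47.5 bp in regions listed in all 4 libraries. It lay within 25 bp in 96 of the 246 regions, against 276 of the 1150 in all 4 libraries. A longer form with a further C (GAAA, any 2 bases, GAAAC) occurred in 85 regions (5.23%), against 0.67% in regions of all 4 libraries and 1.25% of all merged regions. These windows were centred on the WT-IFN-γ summit. Centred on the sgFLI1-IFN-γ summit, 182 regions (11.2%) held the IRF motif.

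**Figure D2:**
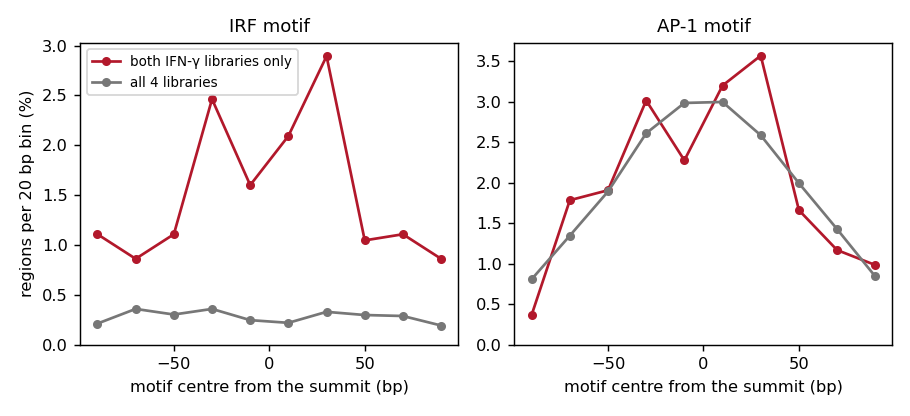
Distance of the motif centre from the summit (x axis, bp) against the percent of regions with the nearest motif in each 20 bp bin (y axis), for the IRF motif (left) and the AP-1 motif (right). The IRF motif was more frequent in the regions of both IFN-γ libraries only (red) than in those of all 4 (grey) in every bin, while the AP-1 curves lie together.

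The GAS motif occurred in 148 regions (9.11%, 7.81 to 10.6%), against 5.80% in regions of all 4 libraries, 6.58% of all merged regions and 10.2% in regions of WT-IFN-γ only. Its stricter palindrome TTCCNGGAA occurred in 37 (2.28%), against 1.05%, 1.14% and 2.58%. The GAS letters allow any 3 inner bases, and 28 regions held both IRF and GAS matches, which overlapped in 5. The AP-1 motif, bound by FOS and JUN factors, was in 324 regions (19.95%), against 19.5% in all 4 libraries and 18.0% of all merged regions.

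Promoter-type and ETS motifs were less frequent than in regions of all 4 libraries, as they were in the patterns of a single library. The KLF/SP motif GGGCGGG occurred in 2.77% of the regions, against 16.1% in regions of all 4 libraries and 8.84% of all merged regions. It occurred in 2.12% to 2.84% of the regions of a single library. The ETS motif CCGGAAGT, of the type bound by FLI1, was in 2 regions (0.12%), against 1.95% in all 4 libraries and 0.98% of all merged regions. It was at 0.11% to 0.24% in the regions of a single library and 0.58% in those of both untreated libraries only. The GGAAGGAA repeat occurred in 1.91%, against 2.43% of all merged regions. The CTCF motif, of the insulator-binding factor, occurred in 5.97%, against 8.59% in all 4 libraries and 6.46% of all merged regions. The base composition also differed, with a median GC content of 45.8% around the summit, against 54.2% in regions of all 4 libraries and 45.3% to 49.8% in those of a single library.

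The remaining motifs differed little. TEAD (GGAATGT) occurred in 4.06% of the regions and 4.35% of all merged regions. CEBP (TTGCNNCAA) occurred in 1.54% and 1.74%, and the NF-κB motif in 2.89% and 3.67%. GRHL (AACCNGGTT) occurred in 1 region, and the TP63 motif in 0 of 1624, which allows a share of up to 0.185% (3 counts). All motifs were searched on both strands.

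Both genotypes listed these regions, and their strength was compared between the 2 IFN-γ libraries. Pileups were divided by each library's background tag density (8.84 tags per kb in WT-IFN-γ and 6.86 in sgFLI1-IFN-γ). The median log2 ratio of WT-IFN-γ over sgFLI1-IFN-γ was 0.09 (quartiles −0.26 and 0.50), against 0.03 in regions listed in all 4 libraries. A region had to be listed in both libraries, which bounds the ratio of weak regions. WT-IFN-γ was at least 2-fold higher in 188 regions (11.6%), where the background in regions of all 4 libraries was 2.71%. sgFLI1-IFN-γ was at least 2-fold higher in 19 (1.17%), where that background was 2.67%. Regions with a peak in WT as well, nearer in strength (medians of 21 and 14 tags), had shares of 8.37% and 1.01%. In regions with a peak in sgFLI1 as well (medians of 18 and 17 tags), the shares were 3.14% and 10.0%. Fewer cells opening a site and less opening in each cell cannot be told apart in such bulk libraries.

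The ratio was higher in regions with an IRF motif. The 246 regions with it had medians of 25 tags (WT-IFN-γ) and 12 tags (sgFLI1-IFN-γ), and a median log2 ratio of 0.71 (quartiles 0.17 and 1.22). In 205 of them (83.3%) the depth-scaled pileup was higher in WT-IFN-γ, and in 83 (33.7%) at least 2-fold. The 1378 regions without it had medians of 17 and 12 tags and a median log2 ratio of 0.02 (−0.37 and 0.40), with 7.62% at least 2-fold higher in WT-IFN-γ. With the motif taken at the sgFLI1-IFN-γ summit, the median log2 ratio of the 182 regions was 0.73. Among regions listed in all 4 libraries, the 1150 with an IRF motif had a median log2 ratio of 0.20 and the 39726 without it 0.02. By the MACS fold over local background, the median log2 ratio was 0.57 in the 246 regions and 0.10 in the 1378. In regions of all 4 libraries it was 0.15 with the motif and 0.04 without it.

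Over all 1624 regions, the 148 with a GAS motif had a median log2 ratio of 0.45, the 324 with an AP-1 motif 0.18 and the 97 with a CTCF motif −0.01. The 28 regions with both IRF and GAS matches had a median of 1.14, and 15 of them were at least 2-fold higher in WT-IFN-γ.

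**Figure D3:**
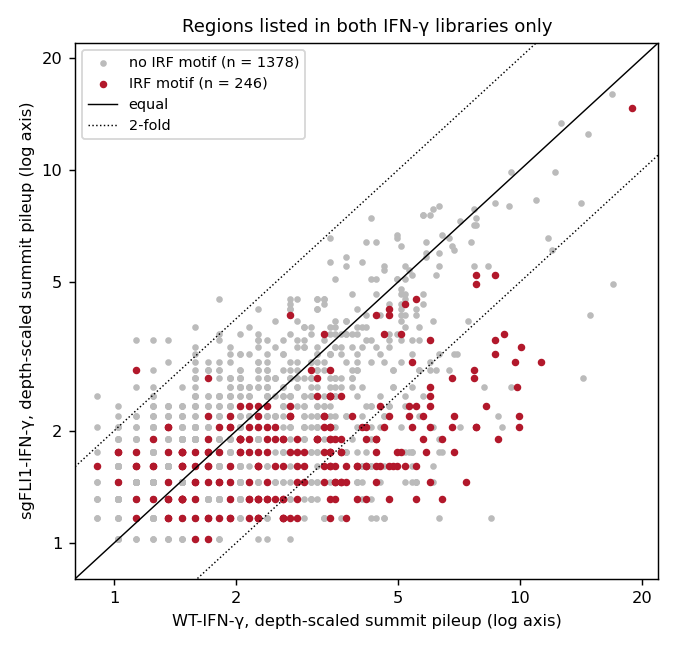
Depth-scaled summit pileup (tags over the background tags per kb, log axes) of the 1624 regions in WT-IFN-γ (x axis) and sgFLI1-IFN-γ (y axis), 1 point per region, with the line of equality and dotted lines at 2-fold. Regions with an IRF motif (red) lie mostly below the line of equality, and 83 lie at or beyond 2-fold.

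**Figure D4:**
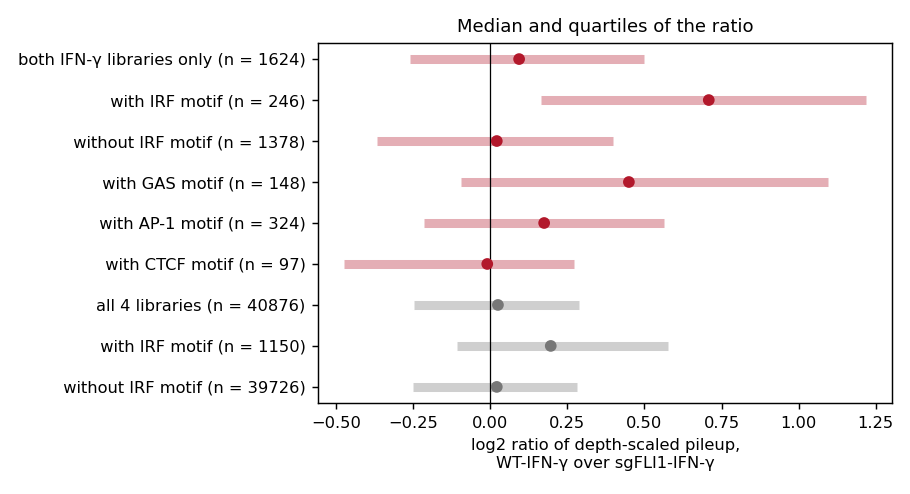
Median (point) and quartiles (bar) of the log2 ratio of depth-scaled pileup, WT-IFN-γ over sgFLI1-IFN-γ (x axis), by motif (y axis), in regions of both IFN-γ libraries only (red) and in regions of all 4 libraries (grey). The IRF-bearing regions have a median of 0.71, against 0.02 without the motif and 0.20 for IRF-bearing regions of all 4 libraries.

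The share with an IRF motif was higher where the WT-IFN-γ peak was stronger. The regions were cut into 4 equal groups of 406 by their tags. By WT-IFN-γ tags the share was 7.14% in the lowest group (8 to 13 tags) and 28.3% in the highest (28 to 167). By sgFLI1-IFN-γ tags it was 15.5%, 17.2%, 17.7% and 10.1% from the lowest group (7 to 10 tags) to the highest (16 to 110). In both orderings the motif window was centred on the WT-IFN-γ summit. The shares by group were not computed at the sgFLI1-IFN-γ summit, so the orderings are not measured alike. The share among regions at least 2-fold higher in WT-IFN-γ was 44.1% (83 of 188), against 11.4% of those within 2-fold (162 of 1417) and 1 of 19 at least 2-fold higher in sgFLI1-IFN-γ.

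The genes of the IFN-γ response were taken from 8 lists of 153 genes, 152 of which were in the GENCODE annotation. A region lay within 10 kb of a TSS of 16 of the 152 (10.5%, 6.58 to 16.4%), where the background over all protein-coding genes was 2.29%. Regions of WT-IFN-γ and sgFLI1 only, a pattern that crosses genotype and treatment, lay near 11 of the 152 (7.24%, background 2.82%), a share inside that interval. The 16 genes near regions of both IFN-γ libraries comprised 2 of 7 guanylate-binding proteins, 2 of 13 class II presentation genes and 4 of 54 antiviral effectors. The rest of the 16 were 1 of 10 transcription factors, 3 of 12 chemokine, cytokine and adhesion genes and 4 of 28 other induced genes. None of 18 class I presentation genes and none of 10 receptor, kinase, feedback and checkpoint genes had such a region within 10 kb of a TSS. The region counted for HLA-DOB had its summit in an exon of TAP2, so the TSS window decides which gene is credited. Regions of WT-IFN-γ only lay within 10 kb of 45 of the 152 genes (29.6%, background 12.8%), and 2 of the 16 genes had both kinds. The 16 genes had 17 regions of both IFN-γ libraries, and 8 of these held an IRF motif.

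The regions at guanylate-binding protein genes, GTPases that attack intracellular pathogens, were stronger in WT-IFN-γ beyond counting error. At the TSS of GBP1 (chr1:89064744-89065724, with the summit in an exon) WT-IFN-γ had 100 tags and sgFLI1-IFN-γ had 21. The depth-scaled ratio was 3.70 (exact 95% interval 2.29 to 6.23). The intergenic region 4847 bp upstream (chr1:89070100-89070676) had 53 and 10 tags, a ratio of 4.11 (2.07 to 9.07). The intergenic region 1770 bp upstream of GBP5 (chr1:89273978-89275083), which held 2 GAS matches and no IRF motif near the summit, had 127 and 19 tags, a ratio of 5.19 (3.19 to 8.90). All 3 intervals lie above 1. These ratios and those of the genes below are scaled for library depth and not for the local background. That background was also higher in WT-IFN-γ, with 10.4 and 2.55 tags at the TSS of GBP1 and 16.4 and 2.92 near GBP5.

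Of the 4 antiviral effectors with a region, 3 had an interval above 1. OAS2, which senses double-stranded RNA, had 87 and 18 tags at its TSS (chr12:112978066-112978891), a ratio of 3.75 (2.24 to 6.62). IFI27, an interferon-induced mitochondrial protein, had 53 and 16 tags at its TSS (chr14:94110369-94111196), a ratio of 2.57 (1.45 to 4.82). The intronic region 3361 bp downstream of a TSS of IFIT2, which binds viral RNA (chr10:89295600-89296856), had 48 and 14 tags, a ratio of 2.66 (1.44 to 5.23). At the OASL intron (chr12:121033945-121034706) 33 and 15 tags gave a ratio of 1.71, with an interval that included 1 (0.90 to 3.38).

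IRF1, the factor that binds the IRF motif, had a region 2763 bp downstream of a TSS with the summit in an exon (chr5:132480645-132482125). WT-IFN-γ had 150 tags there and sgFLI1-IFN-γ had 34, a ratio of 3.42 (2.35 to 5.13). The local background at that region was 58.3 and 11.9 tags, a relative difference no smaller than that of the summit tags. IL18BP, the secreted inhibitor of IL-18, had 61 and 15 tags 356 bp upstream of a TSS (chr11:71999144-72000110), a ratio of 3.16 (1.77 to 5.98). APOL3, an apolipoprotein L with antimicrobial activity, had 42 and 11 tags at its TSS (chr22:36160390-36160922), a ratio of 2.96 (1.5 to 6.38). UBA7, the enzyme that activates ISG15, had 35 and 10 tags (chr3:49813363-49814272), a ratio of 2.72 (1.32 to 6.15). The region nearest HLA-DOB, a class II chain, lay in an exon of TAP2 (chr6:32826024-32827321) and had 36 and 11 tags, a ratio of 2.54 (1.27 to 5.53).

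Other regions near response genes had no difference beyond counting error. The ICAM1 promoter (chr19:10270847-10271549), of an adhesion molecule for leukocytes, had 29 and 24 tags, a ratio of 0.94 (0.53 to 1.68). CD74, the class II invariant chain (chr5:150412577-150413200), had 44 and 25 tags, a ratio of 1.37 (0.82 to 2.33). The region 9397 bp upstream of the chemokine gene CCL5 (chr17:35889910-35890569), which held an IRF motif, had 24 and 15 tags, a ratio of 1.24 (0.63 to 2.55). TNFSF10, the death ligand TRAIL, had 16 and 9 tags in an intron, a ratio of 1.38 (0.57 to 3.54). The intervals of these 4 regions included both 1 and 1.5, so that a 1.5-fold higher value in WT-IFN-γ was not detectable at this depth. Of the 17 regions, 15 had the higher depth-scaled value in WT-IFN-γ, 11 by at least 2-fold and with an interval above 1, and none had an interval below 1. With an IRF motif the interval lay above 1 in 7 of 8, and without it in 4 of 9.

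**Figure D5:**
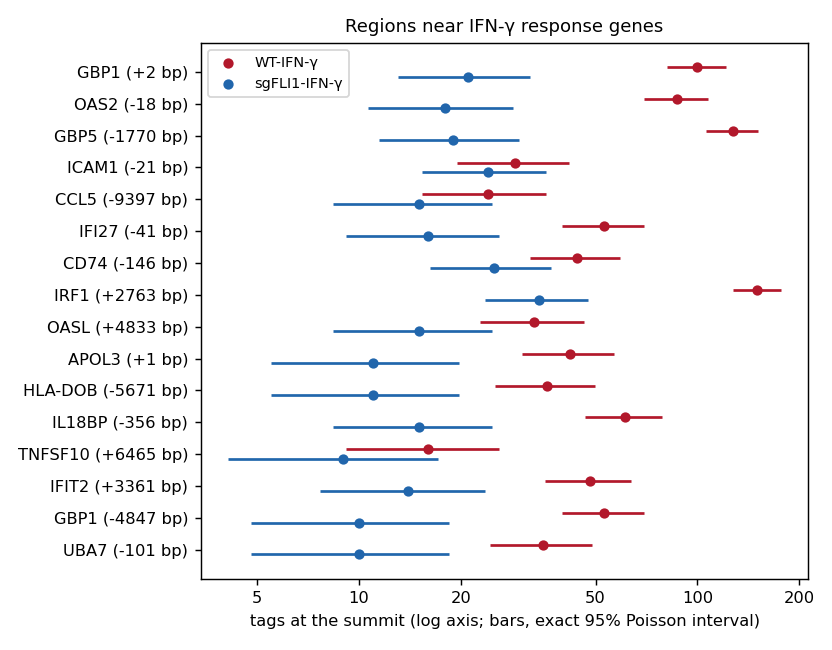
Tags at the summit (log axis) in WT-IFN-γ (red) and sgFLI1-IFN-γ (blue) for 16 of the 17 regions within 10 kb of an IFN-γ response gene, named with the summit's distance from the TSS in bp. Bars are exact 95% Poisson intervals of the undivided tags. The red points lie right of the blue in every region plotted, and the tags are not corrected for the depth of the libraries.

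The 10 strongest regions, by the smaller −log10 q, all lay over 10 kb from the genes of these lists. The strongest lay 2045 bp upstream of HSPA5, the endoplasmic reticulum chaperone BiP (chr9:125243184-125243613, intergenic). The tags numbered 167 with the WT genotype and 101 with sgFLI1, a ratio of 1.28 (1.00 to 1.66), with an IRF motif and 2 AP-1 motifs. An untreated peak lay 1034 bp away.

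AIM2, a cytosolic DNA sensor induced by interferon, had a region 428 bp from a TSS in its intron (chr1:159076778-159077693). It held an AP-1 motif and no IRF motif, and had 132 and 28 tags, a ratio of 3.66 (2.42 to 5.72). The region 4885 bp upstream of S100A2, a calcium-binding protein of squamous epithelia (chr1:153572595-153573000), held a GAS motif and had 125 and 56 tags, a ratio of 1.73 (1.25 to 2.42). These were 2 of the 3 regions among the 10 with an interval above 1.

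A further 6 had intervals that included 1. The MTA2 promoter, of a NuRD complex subunit (chr11:62599195-62599471), had 84 and 68 tags, a ratio of 0.96 (0.69 to 1.34). The NIBAN2 intron (chr9:127519412-127519922) had 112 and 92 tags, a ratio of 0.94 (0.71 to 1.26), with an AP-1 motif. The regions nearest NIF3L1, SPRYD4, ARHGAP15 and PTBP2 had 35 to 57 tags with the WT genotype and 28 to 46 with sgFLI1, with ratios of 0.84 to 1.36. The one nearest ARHGAP15 lay in an intron of KYNU, a kynureninase of tryptophan breakdown, and held a GAS motif. None of these 6 held an IRF motif.

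The most unequal regions were taken among the 187 with at least 60 tags over both libraries. That sum admits regions through the library in which they are high, and so shapes which extremes are seen. The ratio ran furthest towards WT-IFN-γ in a distal region nearest JARID2 (75 and 8 tags, a ratio of 7.28, 3.51 to 17.5). The next were nearest DAOA (56 and 8 tags, 5.43), GBP5 (the region above, and a second one 37873 bp upstream with 65 and 10 tags, 5.05) and TMEM38B (57 and 9 tags, 4.92). The 8 tags nearest JARID2 and DAOA lay close to the lowest pileup listed in sgFLI1-IFN-γ, which was 7. Towards sgFLI1-IFN-γ the ratio ran furthest in the VSTM2L intron (30 and 45 tags, a ratio of 0.52, 0.31 to 0.84). It was followed by the regions nearest ATP6V0A4, a proton pump subunit (38 and 51 tags, 0.58), RHPN1 (30 and 39 tags, 0.60), HMOX1, the heme oxygenase (33 and 40 tags, 0.64), and LMO1 (37 and 44 tags, 0.65). The intervals of HMOX1 (0.39 to 1.04) and LMO1 (0.41 to 1.03) included 1. None of the 5 furthest towards sgFLI1-IFN-γ held an IRF motif, and 2 of the 5 furthest towards WT-IFN-γ did. Over all 187 regions the motif was in 48 (25.7%), and groups of 5 are too few to set apart from that share.

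Of the other gene lists, 4 had 1 gene each with a region, where the background over all protein-coding genes was 2.29%. A region lay within 10 kb of 1 of 15 squamous transcription factors (GRHL2, 35 and 26 tags), 1 of 15 keratins (KRT14, 13 and 11 tags), 1 of 13 S100A genes (S100A2, above) and 1 of 20 ribosomal protein genes (RPL13, 77 and 56 tags). None lay near the 10 AP-1 factors, the 11 NF-κB factors and feedback genes or the 14 integrins and laminins.

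The 3 stretches of 500 kb with the most regions held 6 each, where the share over all merged regions was 1.74%. They were picked for this count. One on chromosome 19, with 34 merged regions in all, held IL4I1 and ATF5. Its 6 regions had 12 to 39 tags in the WT and 9 to 24 in the sgFLI1 genotype, both with IFN-γ, and 0 IRF motifs. One on chromosome 3, with 23 merged regions in all, held IGSF11 (11 to 31 and 8 to 19 tags, 2 IRF motifs). The guanylate-binding protein cluster on chromosome 1, named here after its values were seen, held 5 such regions among 28 merged regions. Of the 5, 4 had an IRF motif, and the median log2 ratio was 2.04.

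Markers of the labelled cell type were looked up within 1 kb of a TSS. A peak was listed at 4 or 5 of the 8 squamous epithelial markers in every library, including EPCAM, DSP and ITGA6, and at none of KRT14, TP63 and DSG3. It was listed at 1 of 8 leukocyte markers (CD14) and at 2 or 3 of 7 fibroblast and endothelial markers, COL1A1 and COL1A2 in every library. A promoter peak does not show expression, and the part of other cells was not tested. The depth-scaled ratio varied by chromosome in regions of all 4 libraries, with medians of −0.11 on chromosome 13 to 0.38 on chromosome 18, and its part in single regions was not tested.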

How the data were processed

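The regions and gene lists were chosen with earlier results of these data known. Per the labels and the study's methods, reads were trimmed (Trimmomatic 0.3) and aligned to GRCh38 (Bowtie2 2.3.4.1), and the authors removed poor alignments and duplicates and called peaks with MACS2 2.1.2. Whether a list is 1 replicate or pooled, precedes the reproducibility filter, or used shifted tags is not stated. The deposited lists give each peak a score, a fold enrichment (a ratio), −log10 p and −log10 q values and a summit offset. For each peak, fold and −log10 p together gave the summit pileup and background, which succeeded for 100% of peaks (error under 0.001). Background tags over the tag length (the shortest peak, 249 to 274 bp) gave the density, 6.86 to 8.84 tags per kb. Genes came from GENCODE v44. Motifs were searched in 201-base windows. The genes named were the 10 strongest regions, those near response genes, the 5 extreme ratios each way and up to 4 of each other list. A few regions and genes counted here are not reported by name. Scripts used Python 3.11.15 and were tested on simulated data. Alternatives were the limits, merging, windows and scaling given in the closing section.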

Additional observations from a re-analysis of the deposited data

How the results depend on the processing

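With both IFN-γ peaks at a −log10 q of at least 5, there were 502 regions, of which 502 reached the tags required in the untreated lists, the IRF share was 17.9% and 8 IFN-γ response genes had a region. With that limit in all 4 lists, there were 967 regions and 10 such genes. With lists of equal size the IRF share was 17.4% and the median log2 ratio 0.22. Without regions that had an untreated peak within 5 kb, the IRF share was 17.1%, the promoter share 7.16%, and 9 response genes remained. The IRF share was 10.2% within 50 bp, 20.1% within 200 bp, 5.23% with the longer motif and 11.2% at the sgFLI1-IFN-γ summit. The promoter share was 4.74% at 1 kb. Response genes numbered 10 at 3 kb and 30 at 50 kb. The median log2 ratio was 0.15 with the MACS fold and 0.47 at 60 tags or more, a limit on the sum of both libraries that admits regions high in WT-IFN-γ through that library. With a 90% counting probability, 635 regions reached the required tags. The other 25 of 46 alternative values moved a count by less than 1.5 times, or left a share or median inside its 95% interval, and no median log2 ratio changed sign. Centring on each chromosome's median, chosen after seeing the data, gave 0.08. No paired analysis was possible because each group had 1 library. Depth limits weak regions, whose tags lay near the listing limits.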

Other observations

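A count of all 8-base words around the summits, made without reference to the motifs above, led to related words. Among words in at least 1.5% of the regions, AAAGTGAA stood furthest above the other merged regions, in 158 regions (9.73%) against 2.43%. It was followed by AAGTGAAA (9.98% against 2.74%) and GAAAGTGA (7.45% against 2.12%), which overlap it. Each word was counted on both strands, and words that overlap share the same sites.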
